A study of Mus musculus with 2 samples.

Results

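The genes described here are 10 receptors with which macrophages and endothelium take up debris, modified lipoproteins, apoptotic cells and spent proteins, namely Lyve1, Folr2, Timd4, Cd163, Mrc1, Stab1, Msr1, Cd36, Marco and Trem2. They are taken from the matrices by symbol, and all 10 were found once by symbol among the 32285 features of the matrices. Each is annotated as protein coding. The data are single-cell RNA-Seq of mitral valve leaflets of mice on a C57BL/6J background at 12 weeks of age. One library came from WT mice (Fbn1+/+) and one from their littermates homozygous for mgR, a hypomorphic Fbn1 allele in every cell of the animal, so that the mgR mice make less fibrillin-1, the microfibril protein that is deficient in Marfan syndrome, and develop myxomatous valves. Expression was counted as unique molecular identifiers (UMIs), each standing for 1 captured RNA molecule. With 1 library per genotype there was no replicate, no test was made, and each interval in parentheses is a 95% interval for counting error only. How many animals were pooled in a library is not stated in its labels, and the legend of the study's single-cell panel gives n = 3.

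Scavenger receptors bind ligands that carry negative charge, altered sugars or oxidised lipid and bring them into the cell for degradation in the lysosome. In heart and other tissues, Lyve1, Folr2, Timd4, Cd163 and Mrc1 are known as markers of long-lived resident macrophages, which lie along vessels and nerves and have little MHC class II, whereas Trem2 marks macrophages that handle lipid in atheroma and in fat. Stab1 and Lyve1 are also known from sinusoidal and lymphatic endothelium, and Cd36 from capillary endothelium, where it takes up fatty acids.

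The WT matrix held 5381844 UMIs in 1104 barcodes and the mgR matrix 28215539 UMIs in 3802 barcodes. Keeping barcodes with 200 to 5000 genes and at most 10% mitochondrial UMIs left 875 WT cells and 3438 mgR cells, with medians of 5033 and 7370 UMIs. Of the barcode sequences, 2 occurred in both libraries and 0 of these were among the kept cells. Macrophages were cells with at least 10 UMIs of C1qa, C1qb and C1qc, endothelium was cells with at least 2 UMIs of Pecam1 and Cdh5, and cells that met both conditions (3 WT and 24 mgR) were kept apart. This gave 226 WT and 1559 mgR macrophages, 57 and 454 endothelial cells, and 589 and 1401 other cells. All 10 markers on the macrophage list were detected in the macrophages of both libraries, with a summed level of 15738 and 18901 UMIs per 1000000 UMIs (CPM), against 208 and 167 CPM in endothelium. C1qa, C1qb and C1qc are on that list and also set the gate. The sums are therefore a description of the classes and no independent check of them. The gates were not sharp at their edges, since 7 WT and 32 mgR macrophages had 10 to 19 C1q UMIs and 14 and 22 other cells had 5 to 9. Endothelial markers, which include the gate genes Pecam1 and Cdh5, summed to 4459 and 5104 CPM in endothelium and to 281 and 317 CPM in other cells. Fibroblast markers summed to 7301 and 6565 CPM in endothelium, more than the endothelial markers in both libraries. Their part in its values was not tested, and the name endothelium here stands for the gate. The methods of the study name male mice alone, yet 28.1% of WT cells had Xist without a UMI of the 4 Y-linked genes counted and 38.5% had Y-linked UMIs without Xist. In the mgR library these shares were 60.8% and 21.1%. Levels are therefore also given within macrophages with Xist alone (76 WT and 1050 mgR) and within those with Y-linked UMIs alone (90 and 296).

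The receptors were for the most part macrophage transcripts in the valve. Against cells that met neither gate, 8 of the 9 receptors that reached 100 UMIs were at least 4 times higher in macrophages in both libraries, whereas 5.16% (WT) and 4.81% (mgR) of all genes with 100 UMIs were so. The macrophage marker C1q defined the class, and the receptors had no part in it. Msr1, the class A scavenger receptor for modified lipoprotein, had 140 UMIs in WT macrophages and 2 in other WT cells, and 1459 and 40 in the mgR library. The share of a receptor's UMIs that lay in macrophages lay between 92.6% and 98.4% for Cd163, Mrc1, Lyve1, Folr2, Stab1, Msr1 and Trem2 in both libraries. Cd36 was less restricted, with 74.9% in WT and 91.1% in mgR, and its CPM in macrophages was 8.88 and 15.3 times that in other cells. Such shares also depend on how many cells were macrophages, 25.8% in WT and 45.3% in mgR, so they are not compared between libraries.

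Timd4, a receptor for phosphatidylserine on apoptotic cells, was the exception. Its level was 33.3 CPM in WT and 57.2 CPM in mgR macrophages, which was 1.15 (0.793 to 1.67) and 2.23 (1.93 to 2.58) times that in other cells. Marco, a class A receptor of bacteria and particles, was close to absent, with 1 UMI in WT macrophages and 15 in mgR macrophages, a CPM ratio of 1.61 (0.247 to 67.6), and so has no further place in the comparisons.

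**Figure D1:**
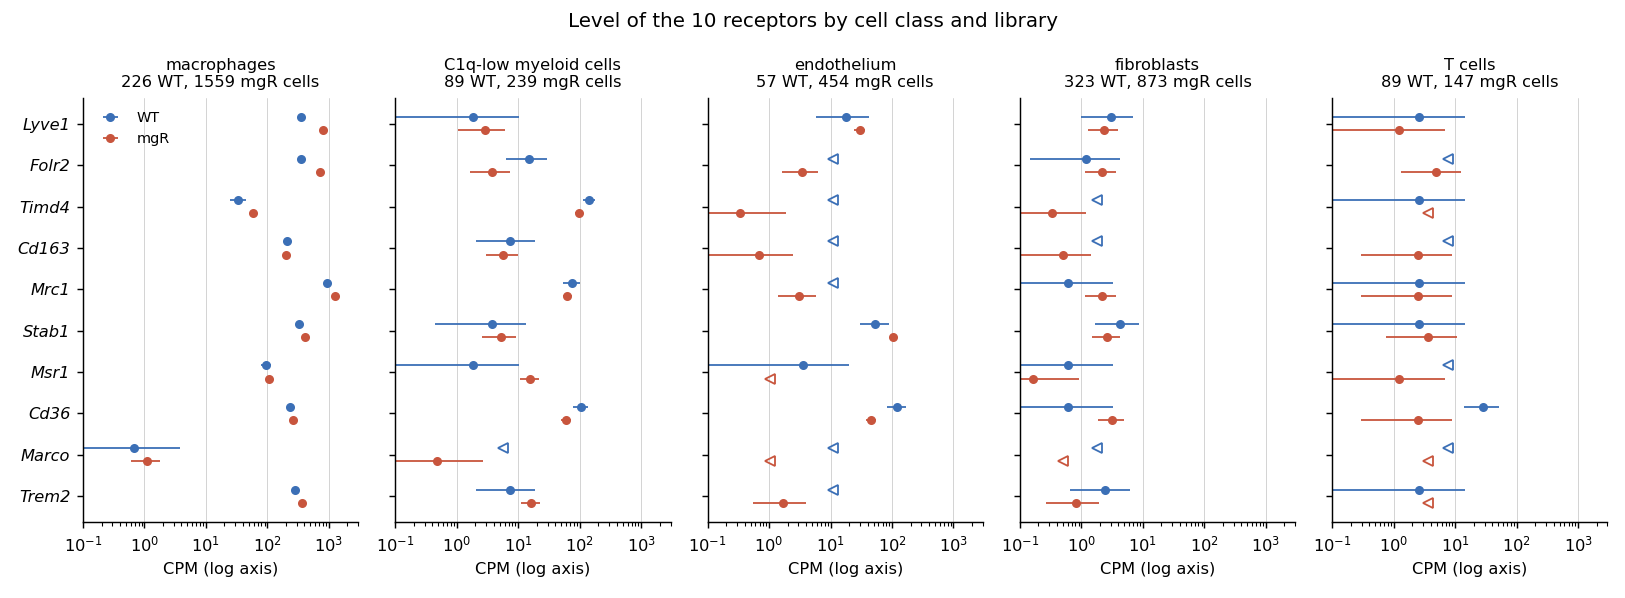
Level of each receptor in CPM (horizontal log axis) in 5 cell classes, with WT in blue and mgR in red. Points are sums over the cells of a class, bars are 95% Poisson intervals, and open triangles mark the level of 3 counts where none were seen. Receptors other than Timd4 and Marco lie to the right in macrophages, Timd4 lies farther right in C1q-low myeloid cells, and Stab1, Lyve1 and Cd36 have levels in endothelium too.

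The mgR and WT libraries were compared in macrophages because the study asked how the cells of the myxomatous valve differ. Lyve1, Folr2 and Timd4 were higher in mgR macrophages by at least 1.5-fold with an interval above 1, and 0 of the 9 counted receptors were lower by that margin. Among all 8039 genes with 100 UMIs in macrophages, 9.42% were higher and 4.44% lower by the same rule. The median log2 ratio was 0.41 over the 9 receptors and 0.11 over all genes.

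Lyve1, a hyaluronan receptor with a link domain, was at 349 CPM (320 to 381) in WT and 797 CPM (782 to 812) in mgR macrophages, a ratio of 2.28 (2.09 to 2.50). Folr2, folate receptor beta, was at 353 CPM (323 to 385) and 720 CPM (706 to 735), a ratio of 2.04 (1.87 to 2.23). The intervals of the libraries did not overlap for either gene. Within macrophages with Xist alone the ratios were 2.90 (2.43 to 3.48) for Lyve1 and 2.48 (2.10 to 2.96) for Folr2, and within those with Y-linked UMIs alone 2.13 (1.89 to 2.41) and 1.72 (1.52 to 1.95). Both genes were thus higher in mgR macrophages whichever sex-linked transcript the cells had. The 2 sets also differed from each other. Lyve1 was 1.65 times (1.33 to 2.05) as high in WT macrophages with Y-linked UMIs as in those with Xist, and Folr2 1.47 times (1.20 to 1.82). Among mgR macrophages the same ratios were 1.21 (1.16 to 1.27) and 1.02 (0.971 to 1.07). Timd4 had few UMIs, 49 in WT and 786 in mgR macrophages, and its ratio was 1.72 (1.29 to 2.34). It was 1.69 (1.11 to 2.69) with Y-linked UMIs alone and 1.28 (0.814 to 2.15), with an interval that included 1, with Xist alone. Markers of some other blood cells were also higher in mgR macrophages. Monocyte markers were at 44.2 CPM in WT and 88.2 CPM in mgR, neutrophil markers at 14.97 and 99.2 CPM, and T cell markers at 2.72 and 16.7 CPM. Dendritic cell markers were lower in mgR, at 43.6 and 30.3 CPM. Of the monocyte markers, Ccr2 was at 42.2 and 33.8 CPM, while Ly6c2 and Plac8 had 0 UMIs in WT macrophages. The part of these markers in the receptor values was not tested.

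Cd163, the receptor that clears haemoglobin bound to haptoglobin, did not follow these genes. It was at 206 CPM (183 to 230) in WT and 199 CPM (192 to 207) in mgR macrophages, a ratio of 0.968 (0.859 to 1.09). Haemoglobin transcripts summed to 192 CPM in WT and 1134 CPM in mgR macrophages, and their part in the value was not tested. Mrc1, the mannose receptor CD206, was at 934 CPM (886 to 985) and 1278 CPM (1259 to 1297), and its ratio of 1.37 (1.29 to 1.45) was above 1 but short of 1.5. Stab1, stabilin-1, which takes up acidic extracellular protein and apoptotic cells, was at 330 CPM (301 to 361) and 410 CPM (399 to 421), a ratio of 1.24 (1.13 to 1.36). Its ratio passed 1.5 at 1.53 (1.28 to 1.84) among macrophages with Xist alone, and was 1.11 (0.967 to 1.29) among those with Y-linked UMIs alone.

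The receptors of modified lipid lay nearer to 1 than Lyve1 and Folr2. Cd36, the class B receptor of oxidised lipoprotein and fatty acids, was at 237 CPM (213 to 264) in WT and 257 CPM (249 to 266) in mgR macrophages, a ratio of 1.08 (0.971 to 1.21). Msr1 was at 95.3 CPM (80.1 to 112) and 106 CPM (101 to 112), a ratio of 1.12 (0.937 to 1.34). For both, the interval included 1 and excluded 1.5. Within macrophages with Xist alone the Msr1 ratio was 1.48 (1.05 to 2.15). Trem2, the lipid sensor that signals through Tyrobp, was at 278 CPM and 369 CPM, a ratio of 1.33 (1.20 to 1.47), and gave 1.39 (1.16 to 1.67) and 1.41 (1.20 to 1.67) in the Xist and Y-linked sets.

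**Figure D2:**
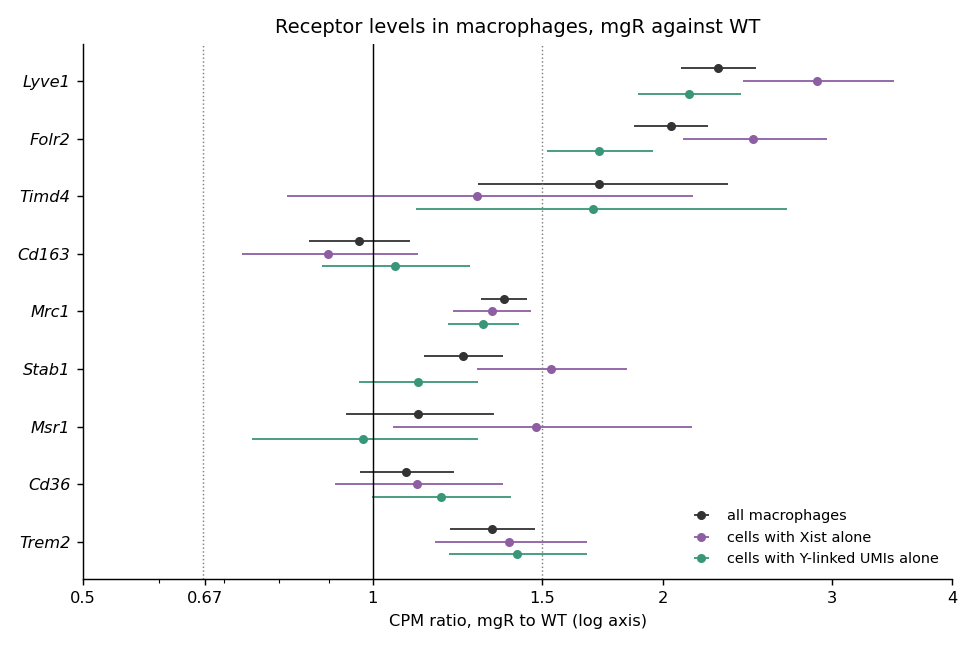
CPM ratio of mgR to WT in macrophages (horizontal log axis) for the 9 receptors with 100 UMIs, in all macrophages, in those with Xist alone and in those with Y-linked UMIs alone. Bars are 95% intervals for counting error, the solid line marks 1 and the dotted lines mark 1.5 and its inverse. Lyve1 and Folr2 lie beyond 1.5 in each of the 3 sets, while the intervals of Cd163 span 1 in each.

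The genes lie apart in the genome, on 9 chromosomes. In the GENCODE annotation (GRCm38), Lyve1 is on the minus strand of chromosome 7 from 110850607 to 110863239 and Folr2 on the same strand of chromosome 7 from 101839988 to 101857194, where Gm10602 and Gm45319 overlap it on the other strand. Timd4 is on chromosome 11 from 46810800 to 46844332, Cd163 on chromosome 6 from 124304656 to 124330527 and Mrc1 on chromosome 2 from 14229392 to 14332057, each on the plus strand, with Mir511 inside Mrc1. Stab1 lies on the minus strand of chromosome 14 from 31139013 to 31168641 and overlaps Nt5dc2 on the other strand. The promoters of Folr2 and Timd4, which were higher in mgR macrophages, are shown with those of Cd163, which was not, and Mrc1. Each runs 5′ to 3′ from 250 bases before to 50 bases after the transcript start (RefSeq, GRCm38.p6). Capitals mark a match on either strand to GAGGAAG, the core bound by PU.1, a factor of the myeloid lineage, to TGCTGAC, a half-site of MAF factors, or to CACGTG, the E-box of TFEB and its relatives.
Folr2, chr7:101857141-101857440, minus strand: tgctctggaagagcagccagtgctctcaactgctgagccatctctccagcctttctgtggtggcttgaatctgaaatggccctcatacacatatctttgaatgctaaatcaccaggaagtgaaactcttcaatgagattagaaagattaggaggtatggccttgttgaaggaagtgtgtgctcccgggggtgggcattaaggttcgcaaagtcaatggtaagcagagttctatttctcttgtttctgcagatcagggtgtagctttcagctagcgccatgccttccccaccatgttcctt
Timd4, chr11:46810549-46810848, plus strand: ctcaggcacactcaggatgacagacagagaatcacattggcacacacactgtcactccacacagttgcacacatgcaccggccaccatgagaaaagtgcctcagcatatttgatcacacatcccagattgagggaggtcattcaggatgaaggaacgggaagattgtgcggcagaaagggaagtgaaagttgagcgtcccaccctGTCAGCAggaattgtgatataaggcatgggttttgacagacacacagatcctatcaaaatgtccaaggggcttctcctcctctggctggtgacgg
Cd163, chr6:124304401-124304700, plus strand: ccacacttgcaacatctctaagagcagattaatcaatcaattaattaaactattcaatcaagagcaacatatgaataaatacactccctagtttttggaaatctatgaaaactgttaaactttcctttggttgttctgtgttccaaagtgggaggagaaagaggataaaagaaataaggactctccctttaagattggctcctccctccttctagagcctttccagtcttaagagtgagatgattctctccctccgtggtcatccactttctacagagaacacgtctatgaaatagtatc
Mrc1, chr2:14229164-14229463, plus strand: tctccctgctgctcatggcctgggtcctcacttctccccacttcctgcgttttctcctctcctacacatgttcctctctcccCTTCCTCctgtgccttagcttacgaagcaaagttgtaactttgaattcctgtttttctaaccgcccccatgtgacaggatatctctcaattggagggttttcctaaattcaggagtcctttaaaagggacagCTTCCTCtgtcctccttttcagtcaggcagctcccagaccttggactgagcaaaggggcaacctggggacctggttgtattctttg
The Mrc1 window held 2 reverse matches to the PU.1 letters, which begin 168 and 36 bases before the start, and the Timd4 window a reverse match to the MAF half-site, 45 bases before the start. The Folr2 and Cd163 windows held none of the 3 motifs. Of the 9 windows listed for 8 of the 10 receptors, 4 held a motif, including 1 match to the PU.1 letters each in Marco and Trem2. Among all 32851 promoters of this length, 13.6% held the PU.1 letters, 4.67% the MAF half-site and 7.15% the E-box. A match describes these letters alone.

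Since mgR cells had more UMIs, the share of cells with a receptor was read after each cell had been thinned at random to 2000 UMIs, which left 220 WT and 1535 mgR macrophages and left out 6 and 24 shallower ones. Lyve1 was then found in 23.2% (17.8 to 29.3) of WT and 46.1% (43.6 to 48.7) of mgR macrophages, with means of 2.59 and 3.22 UMIs per cell that had any. Folr2 was found in 30.0% (24.0 to 36.5) and 54.9% (52.3 to 57.4), with 2.26 and 2.59 UMIs per such cell. Both genes thus differed mainly in how many macrophages had them. Mrc1 was found in 60.9% (54.1 to 67.4) and 73.6% (71.3 to 75.7). For these 3 receptors the intervals did not overlap, and for the other 7 they did. The share of all genes whose intervals did not overlap is not given here, so this count is not read as a trait of the receptors.

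Cd163 was in 44 of 220 WT (14.9% to 25.9%) and 19.7% (17.7 to 21.8) of mgR thinned macrophages and Msr1 in 16.4% (11.7 to 21.9) and 16.4% (14.5 to 18.3). Cd36 was in 26.8% and 31.1%, Stab1 in 36.4% and 43.7%, Trem2 in 40.9% and 43.1%, and Timd4 in 11 of 220 (2.52% to 8.77%) and 8.27% (6.94 to 9.77). Without thinning each of the 9 shares was higher in the deeper mgR library, Lyve1 at 28.8% and 56.8% and Cd163 at 25.7% and 31.4%. T cells, which should lack these receptors, were taken as a rough measure of free RNA. At the same 2000 UMIs, each receptor taken singly was in at most 1.20% of 83 WT and 1.39% of 144 mgR T cells. The WT value was 1 cell, which held 11 Cd36 UMIs before thinning, and is not read as free RNA. The medians before thinning were 4144 and 4971 UMIs in T cells and 6031 and 8363 in macrophages. In fibroblasts each receptor taken singly was in at most 1.03% and 0.956% of cells.

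Whether single macrophages carry several receptors was asked next, with the phi coefficient, which is 0 for independent detection and 1 for full overlap. All cells of a library share its depth and preparation, and detection at 2000 UMIs is sparse, so phi is given as a description. Among the 36 pairs of 9 receptors, phi was above 0 for all 36 in each library, with medians of 0.195 (WT) and 0.111 (mgR), and it was at least 0.1 in both libraries for 21 pairs. No like count over pairs of other genes is given here, so these counts are not read as particular to the receptors. Lyve1 and Folr2 made the tightest pair, at 0.557 in WT and 0.556 in mgR macrophages. They were found together in 17.7% and 39.1% of cells, 2.55 and 1.54 times the share that independence would give. Among Lyve1-positive macrophages, 76.5% (62.5 to 87.2) in WT and 84.7% (81.9 to 87.3) in mgR also had Folr2. Of the few Timd4-positive macrophages, 90.9% (58.7 to 99.8) of 11 and 83.5% (75.8 to 89.5) of 127 had Lyve1, so that most Timd4 cells were Lyve1 cells. Mrc1 was broader, being found in 92.2% and 91.5% of Lyve1-positive and in 51.5% and 58.2% of Lyve1-negative macrophages.

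Cd163 overlapped with Lyve1 (phi 0.345 and 0.285) and Folr2 (0.367 and 0.268). Cd163-positive macrophages had Lyve1 in 52.3% (36.7 to 67.5) for WT and 74.8% (69.5 to 79.6) for mgR, and Cd163-negative ones in 15.9% and 39.1%, so that Lyve1 was more frequent in mgR with and without Cd163. Lyve1-positive macrophages in turn had Cd163 in 45.1% (31.1 to 59.7) and 31.9% (28.5 to 35.5), and Folr2-positive ones in 42.4% (30.3 to 55.2) and 29.3% (26.3 to 32.5), with overlapping intervals. Stab1 was in 63.6% (50.9 to 75.1) and 54.3% (50.8 to 57.7) of Folr2-positive cells, against 24.7% and 30.9% of Folr2-negative cells.

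Trem2 had the lowest median phi with the other 8 receptors, at 0.120 in WT and 0.0551 in mgR macrophages, where the next lowest were Cd36 at 0.159 (WT) and Msr1 at 0.0789 (mgR). With Lyve1 it was 0.0249 and 0.0704. Trem2 was in 43.1% and 46.9% of Lyve1-positive and in 40.2% and 39.9% of Lyve1-negative macrophages, a difference of a few points in WT that lay within counting error. Cd36 was in between, at a phi of 0.300 and 0.239 with Lyve1 and 0.0598 and 0.0422 with Trem2. Msr1 had a phi of 0.106 and 0.107 with Lyve1.

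**Figure D3:**
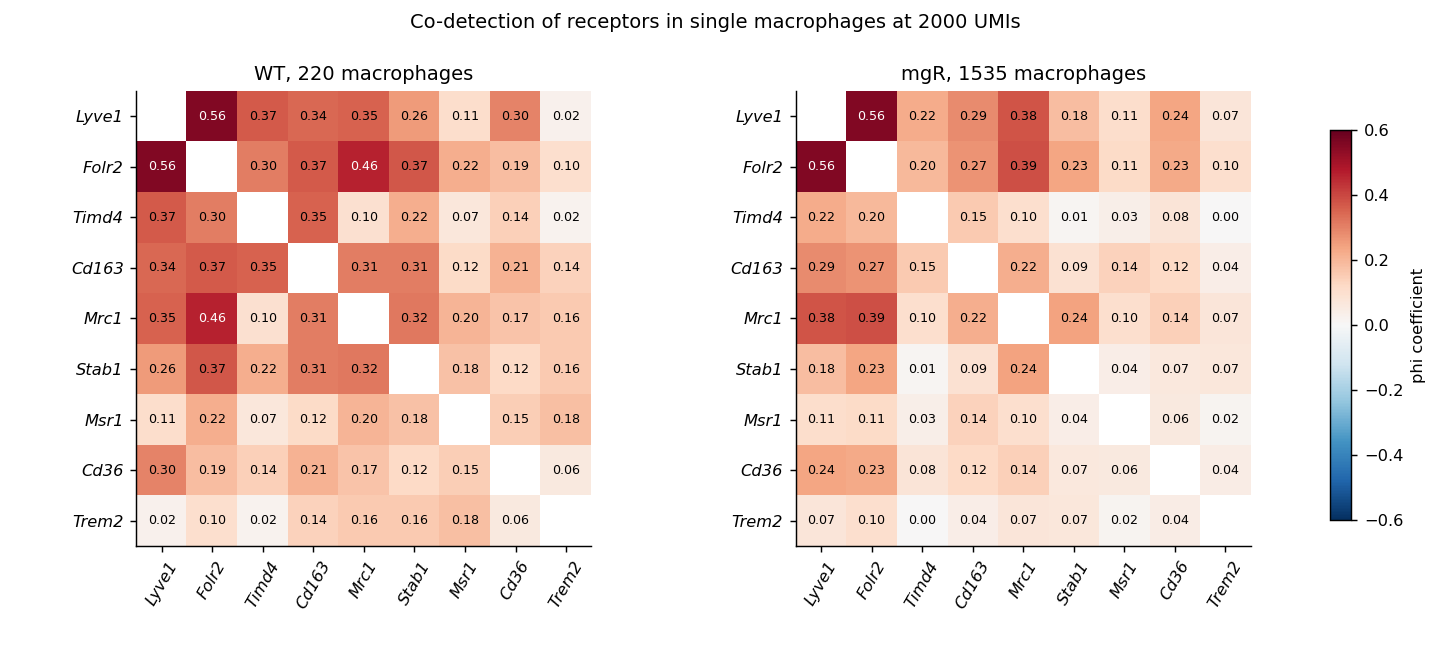
Phi coefficient of co-detection (colour scale from -0.6 to 0.6, values printed to 2 decimals) for each pair of 9 receptors in macrophages thinned to 2000 UMIs, WT on the left and mgR on the right. The upper left block, led by Lyve1 with Folr2 at 0.56 in both, is the darkest, and the Trem2 row has the lowest medians, 0.120 and 0.0551.

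Counted together, the 6 receptors Lyve1, Folr2, Timd4, Cd163, Mrc1 and Stab1 were not spread evenly. Of the thinned macrophages, 31.4% of 220 in WT and 15.9% of 1535 in mgR had none of them, where independent detection would give 10.2% and 2.67%. Those with 4 or more made up 19.5% (14.5 to 25.4) and 30.4% (28.1 to 32.7), against 4.86% and 16.5%. Both ends were thus fuller than independence would have them, in each library. The share with 3 or more was 31.4% (25.3 to 37.9) in WT and 52.4% (49.9 to 55.0) in mgR macrophages. With Xist alone it was 29.3% and 52.7%, and with Y-linked UMIs alone 36.7% and 54.9%.

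**Figure D4:**
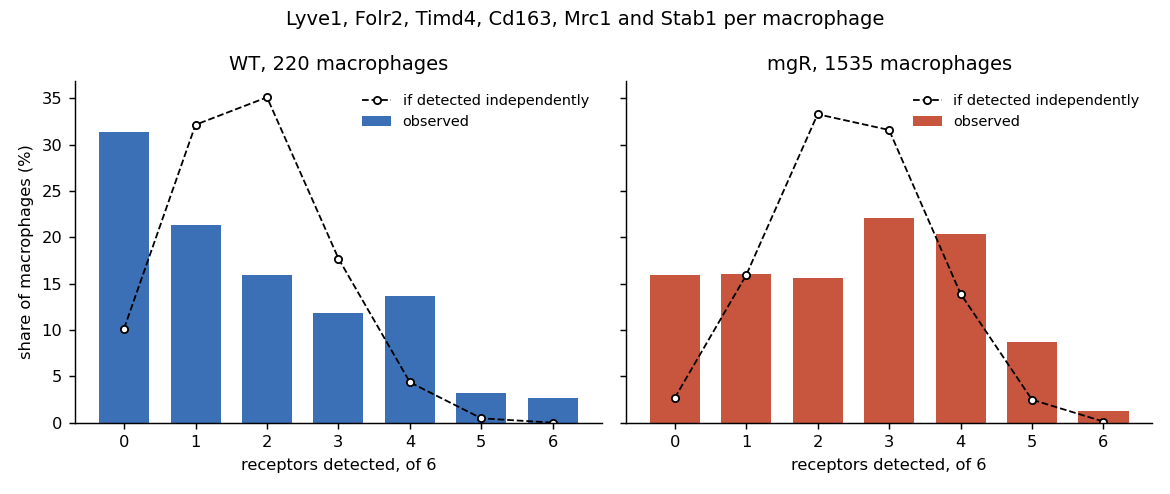
Share of macrophages (vertical axis, percent) by how many of 6 receptors were detected at 2000 UMIs (horizontal axis), with WT on the left and mgR on the right. Bars are observed shares and open circles are what independent detection at the same single-gene shares would give. In both libraries the bars exceed the circles at 0 and from 4 to 6 receptors and fall short of them at 2 and 3.

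The other 3 receptors were followed along this count. Cd36 was in 15.9% (8.24 to 26.7) of WT macrophages with none of the 6 and in 46.4% (34.3 to 58.8) of those with 3 to 6, and in 14.3% (10.2 to 19.4) and 338 of 805 (38.6% to 45.5%) of mgR macrophages. Msr1 was in 4.35% and 29.0% of WT and 7.79% and 20.9% of mgR macrophages. Trem2 was in 30.4% and 49.3% of WT and 32.0% and 47.5% of mgR macrophages, the smallest rise of the 3 as a fold.

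Lyve1 divided the macrophages by antigen presentation. H2-Aa, an MHC class II chain, was found in 23.5% (12.8 to 37.5) of Lyve1-positive and 77.5% (70.5 to 83.6) of Lyve1-negative WT macrophages, and in 21.0% (18.1 to 24.2) and 65.5% (62.2 to 68.8) of mgR macrophages. H2-Ab1, H2-Eb1 and Cd74, its partners, were likewise less often found with Lyve1 in both libraries. Ccr2, the chemokine receptor of recruited monocytes, was in 0% of 51 WT and 0.424% of 708 mgR Lyve1-positive cells, where 0 of 51 allows up to 5.88%, and in 7.69% and 7.13% of Lyve1-negative cells. Cx3cr1 was in 7.84% and 8.19% of the former and 32.0% and 25.9% of the latter. Genes found more often with Lyve1 were Vsig4, a complement receptor (27.5% and 38.8% against 3.55% and 7.62%), the lysosomal protease gene Ctsd (80.4% and 79.2% against 44.4% and 48.5%) and Apoe (100% and 99.7% against 81.1% and 84.6%). Folr2 and Cd163 split these genes in the same directions, with H2-Aa in 34.8% and 26.8% of Folr2-positive and in 36.4% and 23.8% of Cd163-positive macrophages, against 77.9% and 67.1% and against 72.2% and 50.2% of negative ones. H2-Aa was in 36.4% of 11 WT and 21.3% of 127 mgR Timd4-positive macrophages, against 66.5% and 47.2% of negative ones.

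The split by Trem2 was shallower. H2-Aa was in 56.7% and 36.4% of Trem2-positive and 70.8% and 51.5% of Trem2-negative macrophages, and Cd9, which marks lipid-associated macrophages, was in 35.6% (25.7 to 46.3) and 25.8% (22.5 to 29.3) against 33.1% (25.1 to 41.9) and 28.6% (25.7 to 31.8), with overlapping intervals in each library. Gpnmb, another gene of that state, was in 0% of Trem2-positive WT macrophages (0 of 90, which allows up to 3.33%) and 0.453% of mgR ones, and Spp1 was in 3.33% and 6.04%. Trem2-negative macrophages had Spp1 in 6.92% and 5.27%.

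**Figure D5:**
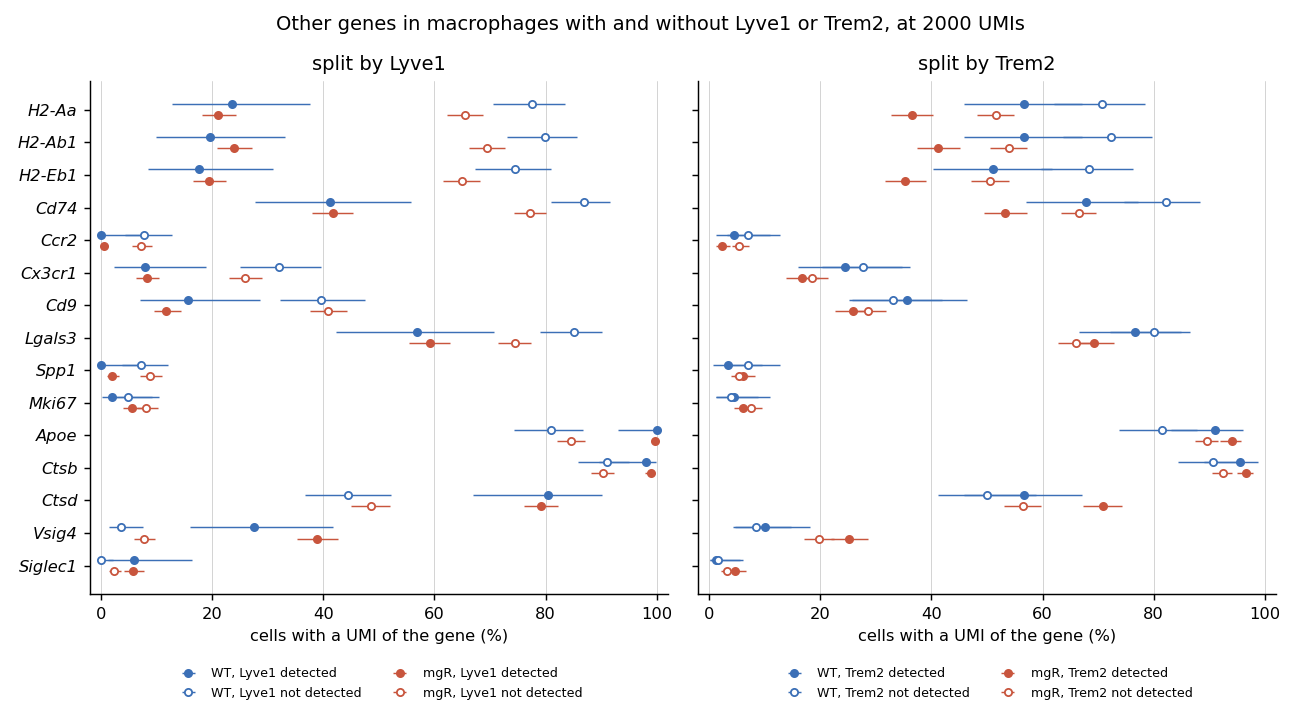
Share of macrophages with a UMI of each of 15 genes (horizontal axis, percent), split by detection of Lyve1 (left) or Trem2 (right), at 2000 UMIs. Filled points are cells with the receptor and open points cells without it, WT in blue and mgR in red, with 95% Clopper-Pearson intervals. MHC class II genes lie between 64.9% and 79.9% without Lyve1 and between 17.6% and 23.9% with it, and the Trem2 points lie closer together.

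Genes whose counts followed the receptors across single macrophages were ranked among 2328 genes by the mean Spearman rho of both libraries, over 220 WT and 1535 mgR cells that share a library each. F13a1, which encodes the A subunit of factor XIII, ranked first for Lyve1 (rho 0.623 in WT and 0.648 in mgR), for Folr2 (0.625 and 0.614) and for Mrc1 (0.616 and 0.532). Folr2 and Lyve1 ranked second for each other (0.585 and 0.571). Ccl6, Wfdc17 and Selenop followed for Lyve1, Selenop, Wfdc17 and Cbr2 for Folr2, and Selenop, Pf4 and Folr2 for Mrc1. For Cd163 the list included Selenop, F13a1, Hmox1 and Mrc1. Hmox1, the haem oxygenase that breaks down haem which Cd163 brings in, had a rho of 0.446 in WT and 0.300 in mgR cells. Stab1 was followed most by Mrc1, Ctsb, Selenop, Pf4 and F13a1, with mean rho from 0.334 to 0.353. Timd4 was followed most by Lyve1, Folr2, Cd163, F13a1 and C4b, and Cd36 by Lyve1, F13a1, Ccl6, Folr2 and Wfdc17, all with a mean rho of 0.314 or less. For Trem2 and Msr1 no gene had a mean rho above 0.199, so none is read as alike. The first 2 genes for Trem2 were Ctsd (0.159 in WT and 0.239 in mgR) and Ctsb (0.216 and 0.179). Both are on the list of Trem2 partners and lipid-handling genes used below.

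Other receptors of clearance were compared as a list of 40, of which 23 had 100 UMIs in macrophages. By the 1.5-fold rule, 9.42% of all 8039 genes counted in macrophages were higher in mgR and 4.44% lower, with a median log2 ratio of 0.11. Of the 23 on the list, 6 were higher in mgR macrophages, 2 were lower and 15 were neither, with a median log2 ratio of 0.25. The highest ratios were those of Vsig4 (125 CPM in WT and 263 CPM in mgR, ratio 2.12, 1.82 to 2.47), Colec12, a collectin receptor (1.77, 1.47 to 2.15), the lectins Cd209f (1.72, 1.44 to 2.06) and Cd209g (1.60, 1.19 to 2.19) and Clec10a (1.57, 1.22 to 2.07). The lower ones were Havcr2, at 93.9 and 53.1 CPM (0.565, 0.471 to 0.683), and Axl, a receptor of apoptotic cells, at 108 and 65.1 CPM (0.602, 0.508 to 0.717). Among 11 counted partners of Trem2 and genes of lipid handling, Spp1 was higher (1.56, 1.19 to 2.07), Lgals3 was lower (0.653, 0.626 to 0.681) and 9 were neither, with a median log2 ratio of 0.13. Of 7 counted genes of monocytes and antigen presentation, H2-Aa, H2-Ab1, H2-Eb1 and Cd74 were lower, at ratios from 0.470 to 0.536, while Ly6c2 and Plac8 had 0 UMIs in WT and 255 and 247 UMIs in mgR macrophages. The median log2 ratio of the 7 was -0.90, also with Ly6c2 and Plac8 set to the 3 counts that a count of 0 allows. Of 10 genes induced by tissue dissociation, 0 were higher, Fos, Hspa1a and Hspa1b were lower, and the median log2 ratio was -0.32. The part of dissociation in the receptor values was not tested.

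Endothelium had levels of Stab1, Cd36 and Lyve1. Against other cells, Stab1 and Cd36 were at least 4 times higher in WT endothelium and Stab1 and Lyve1 in mgR endothelium, a mark reached by 2.22% and 3.90% of all genes. The WT Cd36 ratio of 4.42 (2.84 to 6.74) fell to 1.09 (0.453 to 2.25) without 1 cell that held most of its UMIs, and was then short of that mark. Between the libraries, Stab1 was higher and Cd36 lower by the 1.5-fold rule in mgR endothelium, as were 4.32% and 4.70% of 4723 genes. Stab1 was at 53.8 CPM (30.1 to 88.7) in WT and 103 CPM (91.8 to 115) in mgR endothelium, a ratio of 1.92 (1.14 to 3.47) that rests on 15 WT UMIs. Thinned to equal depth it was found in 8.16% (2.27 to 19.6) of 49 WT and 17.4% (14.0 to 21.3) of 442 mgR cells, whose intervals overlap. The ratio was 0.972 (0.406 to 2.82) with Y-linked UMIs alone and 2.15 (0.908 to 6.70) with Xist alone, on few UMIs. In the mgR library, Stab1-positive endothelial cells more often had Vwf (57.1% against 27.7% of 365 negative cells), Emcn (77.9% and 55.9%) and Prox1 (35.1% and 19.5%), genes of the vascular and lymphatic marker lists, while the lymphatic gene Mmrn1 was in 1.30% and 1.92%. Of macrophage genes, Csf1r and Adgre1 were in 0 of the 77 positive cells, and C1qa, C1qb and C1qc in 3.90% to 5.19%, against 2.74% to 5.21% of negative cells.

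The Cd36 value in endothelium came down to a single cell. WT endothelium had 33 Cd36 UMIs in 5 cells, of which 25 were in 1 cell, and mgR endothelium had 134 in 38 cells, which gave 118 and 45.6 CPM and a ratio of 0.385 (0.262 to 0.582). Without that cell the ratio was 1.57 (0.773 to 3.70). With Xist alone it was 0.0594 (0.0340 to 0.105), and with Y-linked UMIs alone 1.19 (0.505 to 3.41). No direction can be read from it.

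Lyve1 had 5 UMIs in WT and 88 in mgR endothelium, 17.9 and 29.9 CPM. In the mgR library, the 13 thinned endothelial cells with Lyve1 had the lymphatic genes Mmrn1 in 46.2% and Pdpn in 30.8%, each against 0.466% of 429 cells without it, and Cldn5 in 46.2% against 4.20%. The lymphatic genes Prox1 and Flt4 were in 38.5% and 30.8% against 21.7% and 10.7%, Reln in 7.69% against 0.233%, and Ccl21a in 0% of both. The macrophage markers C1qa, C1qb, C1qc, Csf1r, Adgre1, Cd68, Fcgr1, Mertk and C5ar1 were each in 0 of these 13 cells, as were Folr2 and Mrc1. Folr2, Mrc1, Cd163 and Trem2 had 0 UMIs in 57 WT endothelial cells and between 2 and 10 UMIs in 454 mgR cells.

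Outside both gates, the receptors were found in C1q-low myeloid cells, defined as cells with at least 5 UMIs of Tyrobp and Fcer1g and without fibroblast or T cell transcripts at their limits (89 WT and 239 mgR cells). Timd4 was higher there than in macrophages, at 143 CPM (112 to 178) in WT and 97.0 CPM (84.2 to 111) in mgR cells, 4.27 times (2.95 to 6.25) and 1.70 times (1.45 to 1.98) the macrophage level. At 2000 UMIs it was in 13.9% and 12.9% of these cells. Of the 11 WT and 27 mgR cells with Timd4, 100% and 96.3% had H2-Aa, against 51.5% and 82.4% of cells without it. Neutrophil markers in the class summed to 16810 and 5859 CPM, and S100a8, 1 of them, was in 0% and 3.70% of cells with Timd4 against 16.2% and 8.24% of those without it. Their part in the H2-Aa difference was not tested. Ccr7, a gene of migratory dendritic cells, went in opposite directions, at 9.09% against 30.9% in WT and 40.7% against 25.8% in mgR cells. Flt3 and Zbtb46 of the dendritic list also changed direction between the libraries. On few cells, Xcr1 (18.2% and 14.8% against 4.41% and 6.04%) and Clec9a (9.09% and 11.1% against 0% and 6.04%) were more frequent with Timd4. Cd209a (18.2% and 22.2% against 26.5% and 29.1%) was less frequent with it. Lyve1 was in 0 thinned C1q-low myeloid cells of either library. Timd4 therefore occurred in macrophages, mostly with Lyve1 and less often with H2-Aa, and in C1q-low cells with H2-Aa and no Lyve1 UMI. Mrc1 was at 74.0 and 63.0 CPM, and 3 of 5 WT and 72.7% of 22 mgR cells with it had Cd209a, a dendritic cell lectin, against 23.0% of those without it in each library. Cd36 was at 104 and 60.1 CPM, and the 14 WT and 12 mgR cells with it showed no single pattern over the monocyte and dendritic lists. Of monocyte genes, Plac8 was in 42.9% and 33.3% of them against 16.9% and 18.8% of cells without Cd36, but Ly6c2 was in 0% of them against 7.69% and 14.2%. Of dendritic genes, Clec9a was in 7.14% and 3 of 12 against 0% and 5.58%, but Cd209a was in 0% against 30.8% and 29.9%. Lyve1, Folr2, Stab1, Cd163 and Trem2 were each below 5% of their macrophage level in these cells of both libraries.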

How the data were processed

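The authors deposited counts, whole numbers of UMIs per gene and cell barcode, made with Cell Ranger 7.1.0 per the submitters' processing notes, with mm10 named as the build, from enzymatically digested valves and sorted viable cells. The treatment of introns is not given in the sources used here. The receptors and gene lists were chosen with earlier results of these data known. UMIs were summed per class and library and divided by the class total (CPM). Sums have exact Poisson intervals, shares Clopper-Pearson intervals and ratios conditional binomial intervals, for counting error only, and a count of 0 was taken to allow 3 counts. Thinning to 2000 UMIs was 1 random draw without replacement. Fibroblasts had at least 10 UMIs of Col1a1, Col1a2, Col3a1 and Dcn, and T cells at least 2 of Cd3d, Cd3e, Cd3g and Trbc2. All receptors are named, with up to 5 genes of the clearance list at each end past 1.5-fold and the 5 genes of highest mean rho among those in at least 10% of thinned macrophages, for receptors in at least 5%. Other list genes quoted were picked after their values were seen. Doublets were not removed, and Scrublet (scanpy 1.11.5) marked 1.03% of WT and 1.51% of mgR cells. Python 3.11.15, numpy 2.4.6 and scipy 1.17.1 were used, and the calculations were tested on simulated counts. The Lyve1 and Msr1 promoters were not used here. Some genes that these rules or lists would name are not reported here.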

Additional observations from a re-analysis of the deposited data

Results flagged for a closer look

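The values below lie outside the comparisons of the report and were above the limit of 3 counts. Cells that met both the macrophage and the endothelial gate held 113 UMIs of the 10 receptors in 3 WT cells and 692 UMIs in 24 mgR cells. Barcodes left out for more than 5000 genes or over 10% mitochondrial UMIs held 57 receptor UMIs in 37 WT barcodes and 528 in 111 mgR barcodes, of which 3 and 15 barcodes met the C1q limit. Barcodes with fewer than 200 genes held 14 receptor UMIs in the mgR library, in 253 barcodes with 96.5% haemoglobin UMIs, and 3 in the WT library.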

How the results depend on the processing

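Each of the 6 results was recomputed under other gates, filters, depths and scalings, with 1 change added after seeing the data (the WT endothelial cell with most Cd36 UMIs left out). Of 58 such values 50 stayed within 1.5 times the reported count, or within counting error, and 8 moved. In macrophages Lyve1 and Folr2 were past 1.5-fold in all 12 alternatives, with ratios from 2.09 to 2.90 and from 1.72 to 2.48. Timd4 ran from 1.28 to 1.79 and was not past the rule among cells with Xist alone, or after thinning, where it had too few UMIs. Stab1 passed 1.5-fold among cells with Xist alone. In endothelium the count of receptors past 1.5-fold fell from 2 to 1 with the gate set after thinning (Cd36 remaining). It also fell to 1 without the Cd36-rich cell (Stab1 remaining). It fell to 0 on thinned counts, among cells with Xist alone and among cells with Y-linked UMIs alone. With Xist alone, Cd36 had too few UMIs to be counted (26 WT and 30 mgR), at a ratio of 0.0594 (0.0340 to 0.105). The Stab1 interval there included 1 (0.908 to 6.70). With Y-linked UMIs alone, Stab1 (6 and 36) and Cd36 (6 and 44) had too few UMIs to be counted. The cause of the other falls was not tested. The number of receptors whose shares did not overlap between the libraries rose from 3 to 8 with UMIs as counted and to 5 at 4000 UMIs. The number of pairs with phi of at least 0.1 in both libraries rose from 21 to 33 with UMIs as counted. No like count over all genes or over pairs of other genes is given here. The Lyve1 and Folr2 phi lay between 0.551 and 0.737 in WT and between 0.550 and 0.697 in mgR macrophages. No paired analysis was possible because each genotype had 1 library.

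Genotype, library, depth and the mix of sex-linked transcripts cannot be told apart with 1 library per genotype, and no interval here covers the spread between animals. The WT library had 226 macrophages and 57 endothelial cells, so WT values of Timd4, Msr1 and all endothelial receptors rest on few UMIs.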
